A study of Mus musculus with 3 samples.

Results

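Imprinted genes were examined in methylated DNA immunoprecipitation sequencing (MeDIP-seq) of mouse cardiomyocytes. The set held 48 genes of 18 textbook imprinted clusters, out of 34614 protein-coding and long non-coding genes in the RefSeq annotation of mouse build mm10 (GRCm38). All 48 were found there by symbol. A peak counted for a gene when it overlapped the gene body or the 5 kb on either side, called the gene's window below. The windows together spanned 3.69 Mb and held 266 of the 135886 Sham peaks and 273 of the 162107 TAC peaks.

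The study profiled 5-methylcytosine (5mC) in isolated cardiomyocytes of C57Bl6/J mice, all male and 8 weeks old. One group had a sham operation (Sham) and the other pressure overload by transverse aortic constriction (TAC), for 1 week according to the series title. Each group was 1 library, and an Input library without antibody served the authors' peak calling and was otherwise not analysed here. The number of animals behind a library was not stated in the labels. With 1 library per group no difference between Sham and TAC has a replicate check, so values are given without a test, and intervals cover counting error only. The deposited data hold no expression values, so the cardiomyocyte label was not checked against marker genes. A peak marks a region enriched by the antibody over input, not a methylation level. The method reads the DNA of all cells and of both parental alleles together, so methylation of 1 allele and partial methylation of both cannot be told apart.

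Genomic imprinting is the expression of a gene from only the maternal or only the paternal copy. Each imprinted cluster is controlled by a differentially methylated region (DMR) that receives its methylation in the egg or the sperm and keeps it in body tissues on that parental copy. Most such germline DMRs are methylated in the egg and lie at a transcription start, where CpG islands are otherwise free of methylation. A few are methylated in sperm and lie between genes. In the heart, imprinted genes such as Igf2, Cdkn1c and Dlk1 are best known from fetal growth and are mostly repressed after birth.

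The starts of several imprinted genes are shown first because their sequences carry the contrast described below, CpG-rich promoters with and without a 5mC peak. Each sequence is a RefSeq promoter window of build GRCm38.p6, 250 bases before to 50 bases after an annotated start, 5′ to 3′ on the gene's own strand, and capitals mark each CpG. Kcnq1ot1 (chr7:143296498-143296797, minus strand) is the start of the paternally expressed RNA that silences the Cdkn1c domain. Mest (chr6:30737800-30738099, plus strand), Plagl1 (chr10:13090582-13090881, plus strand) and Nnat (chr2:157559828-157560127, plus strand) are starts of paternally expressed genes. Igf2r (chr17:12769657-12769956, minus strand) is the start of the maternally expressed receptor that takes up IGF2. For Gnas, the window chr2:174327499-174327798 holds the start named Gnas-1A here, and chr2:174329756-174330055 holds the start named Gnas-main, both on the plus strand. Ndn (chr7:62348027-62348326, plus strand) is the start of the gene for necdin.
Kcnq1ot1: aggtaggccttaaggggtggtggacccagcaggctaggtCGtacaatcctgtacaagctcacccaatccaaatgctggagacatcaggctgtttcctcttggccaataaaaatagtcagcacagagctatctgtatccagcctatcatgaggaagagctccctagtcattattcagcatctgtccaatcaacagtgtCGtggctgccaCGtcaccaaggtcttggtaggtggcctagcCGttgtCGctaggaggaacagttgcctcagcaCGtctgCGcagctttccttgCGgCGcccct
Mest: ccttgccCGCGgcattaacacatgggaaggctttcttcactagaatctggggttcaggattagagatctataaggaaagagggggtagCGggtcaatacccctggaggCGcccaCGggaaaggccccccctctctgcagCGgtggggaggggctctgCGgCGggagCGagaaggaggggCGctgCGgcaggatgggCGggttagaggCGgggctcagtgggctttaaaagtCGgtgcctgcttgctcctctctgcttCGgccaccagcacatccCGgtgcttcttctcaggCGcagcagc
Plagl1: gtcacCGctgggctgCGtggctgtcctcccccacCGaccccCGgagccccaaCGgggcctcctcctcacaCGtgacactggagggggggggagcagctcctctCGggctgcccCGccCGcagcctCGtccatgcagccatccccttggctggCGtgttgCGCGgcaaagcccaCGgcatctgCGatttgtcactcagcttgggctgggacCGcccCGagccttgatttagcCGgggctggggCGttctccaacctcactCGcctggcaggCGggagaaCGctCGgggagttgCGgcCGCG
Nnat: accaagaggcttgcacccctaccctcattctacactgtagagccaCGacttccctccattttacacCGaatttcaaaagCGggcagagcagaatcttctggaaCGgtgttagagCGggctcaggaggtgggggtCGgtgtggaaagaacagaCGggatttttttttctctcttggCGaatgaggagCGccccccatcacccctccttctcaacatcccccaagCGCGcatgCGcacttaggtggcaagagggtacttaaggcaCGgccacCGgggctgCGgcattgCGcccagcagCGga
Igf2r: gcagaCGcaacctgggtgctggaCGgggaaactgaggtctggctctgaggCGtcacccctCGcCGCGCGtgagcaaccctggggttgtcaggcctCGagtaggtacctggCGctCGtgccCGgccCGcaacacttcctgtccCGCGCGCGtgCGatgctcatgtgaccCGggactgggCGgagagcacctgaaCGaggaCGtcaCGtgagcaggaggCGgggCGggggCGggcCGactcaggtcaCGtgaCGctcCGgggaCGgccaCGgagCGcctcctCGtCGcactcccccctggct
Gnas-1A: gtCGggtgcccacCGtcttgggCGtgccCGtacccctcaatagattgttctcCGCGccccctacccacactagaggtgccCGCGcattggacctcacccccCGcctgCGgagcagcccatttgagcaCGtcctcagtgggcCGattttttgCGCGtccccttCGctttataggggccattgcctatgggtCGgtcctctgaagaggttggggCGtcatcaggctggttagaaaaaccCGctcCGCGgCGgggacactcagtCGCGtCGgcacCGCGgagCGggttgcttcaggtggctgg
Gnas-main: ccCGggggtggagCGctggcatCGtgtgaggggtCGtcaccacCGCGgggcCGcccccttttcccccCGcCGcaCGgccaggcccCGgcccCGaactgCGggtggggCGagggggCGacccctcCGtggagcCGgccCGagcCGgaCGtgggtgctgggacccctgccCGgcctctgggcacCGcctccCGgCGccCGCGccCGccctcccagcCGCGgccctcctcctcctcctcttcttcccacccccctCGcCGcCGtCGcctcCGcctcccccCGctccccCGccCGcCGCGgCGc
Ndn: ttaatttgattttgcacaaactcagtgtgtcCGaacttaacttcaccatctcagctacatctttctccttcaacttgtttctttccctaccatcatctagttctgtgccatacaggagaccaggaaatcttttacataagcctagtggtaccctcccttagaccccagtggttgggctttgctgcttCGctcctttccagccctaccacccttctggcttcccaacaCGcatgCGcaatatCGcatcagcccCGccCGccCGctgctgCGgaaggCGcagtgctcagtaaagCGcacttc
The first 6 sequences were overlapped by a peak in Sham and in TAC, and the last pair, Gnas-main and Ndn, in neither library. They hold 9 CpG dinucleotides (Kcnq1ot1), 17 (Mest), 26 (Plagl1), 17 (Nnat), 34 (Igf2r), 27 (Gnas-1A), 40 (Gnas-main) and 11 (Ndn), against a median of 7 over all 32851 annotated promoter windows. The hexamer TGCCGC, which the zinc finger protein ZFP57 is known to bind when methylated, was searched on both strands (reverse complement GCGGCA). In the printed sequences it occurs only as GCGGCA. This begins at positions 9 and 184 of the Mest window, 161 of Plagl1 and 278 of Nnat, counted from the 5′ end. The other printed windows hold no match.

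Promoters of imprinted genes lay under peaks in both libraries more often than promoters at large. The promoter table held 56 windows for 39 of the 48 genes, and 14 of them (25%) were overlapped by a peak in both libraries, against 2.79% of all promoter windows (916 of 32851). Among windows with at least 10 CpG the numbers were 12 of 37 (32.4%) against 1.95%, and with at least 20 CpG they were 6 of 18 (33.3%) against 1.09%. Across all genes coverage was lowest in the most CpG-rich windows, from 4.73% at 5 to 9 CpG to 1.09% at 20 or more. Among the imprinted genes it did not fall: 0 of 10 windows with up to 4 CpG, 2 of 9 with 5 to 9, 6 of 19 with 10 to 19 and 6 of 18 with 20 or more were covered. The 22 windows of genes with a maternally methylated germline DMR had 12 covered (54.5%). These numbers count windows, and several windows of Gnas, Mest and Igf2 overlap or belong to the same gene. The windows of Peg3 and Usp29 also overlap each other, so the covered windows are not all separate sites.

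**Figure D1:**
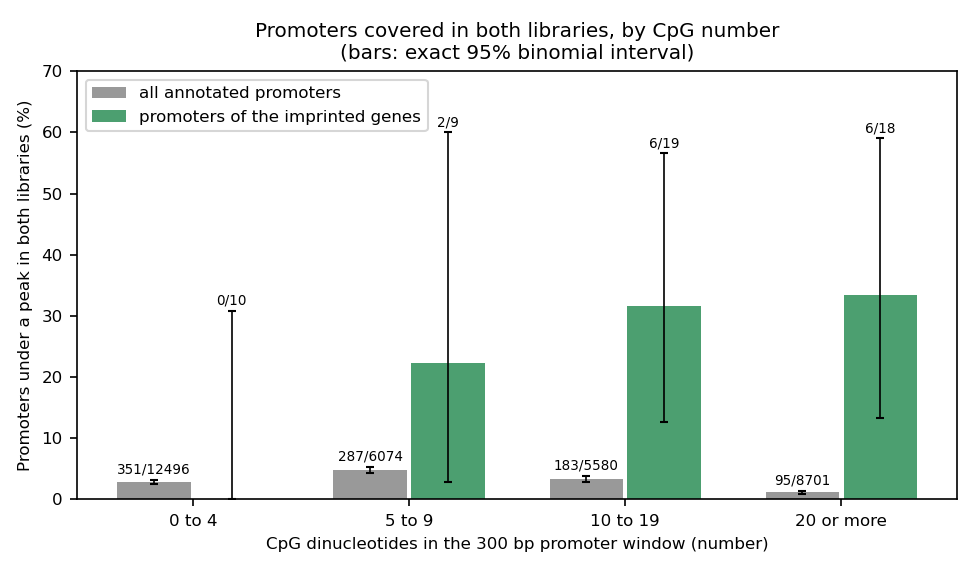
Share of 300 bp promoter windows overlapped by a peak in both libraries (y axis, percent) by the number of CpG dinucleotides in the window (x axis), for all annotated promoters and for promoters of the imprinted genes; numbers over the bars give covered and total windows, and error bars are 95% exact binomial intervals for counting error. Overlapping windows are counted separately, so the intervals are too narrow. Over all promoters the share is lowest at 20 or more CpG (1.09%), whereas 6 of 18 imprinted windows of that kind are covered.

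The covered windows with at least 20 CpG belonged to Igf2r (34 CpG), Gnas (27 and 28 CpG in windows that overlap), Plagl1 (26), Mcts2 (25) and Igf2 (24). CpG-rich windows of the set without a peak in either library were those of Ppp1r9a (48 CpG), Grb10 (45), Cobl (42), the main start of Gnas (40), Ube3a (29), Phlda2 (26), Rasgrf1 (26), Copg2 (25), Dio3 (25), Ascl2 (23), H13 (21) and Zim1 (20). Commd1 had 17 CpG in the window of its start at the Zrsr1 end. A peak called in both libraries reached into that window in TAC, 214 bp from the start. In Sham it lay 329 bp from the start, outside the window. TGCCGC, on either strand, occurred in 13 of the 56 windows (23.2%) and in 11.6% of all windows. Among windows with at least 20 CpG the share was 27.8% in the set and 27.8% over all promoters. A match of these letters is a description of the sequence only.

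Gene ends, which need no promoter table, were compared as well. A peak within 1 kb of either gene end was present in both libraries for 25 of the 48 genes (52.1%), against 19.6% of all annotated genes (6768 of 34614). It was present in Sham alone for Slc22a2, an organic cation transporter gene (background 8.11% of genes), and in TAC alone for Zim1, a zinc finger gene (background 9.59%). The 25 genes were H19, Igf2, Igf2r, Airn, Slc22a3, Kcnq1ot1, Cdkn1c, Phlda2, Mest, Peg3, Usp29, Peg10, Sgce, Ddc, Cobl, Plagl1, Magel2, Gnas, Nnat, Mcts2, Meg3, Rtl1, Mirg, Peg13 and Rasgrf1. At Magel2, a gene of the Prader-Willi region, the end peaks of the libraries did not overlap each other (chr7:62377596-62378096 in Sham and chr7:62376005-62376505 in TAC). Counted only at annotated starts, 17 of the 39 genes with a promoter entry (43.6%) had a peak within 1 kb in both libraries, against 11% of all genes with an entry (2976 of 27025). For the genes classed with a maternally methylated germline DMR it was 10 of 13 (76.9%), with Peg3 and Usp29 counted for the same peak. Textbook class and gene length were not separated from each other here: the members were 799 to 471619 bp long, and a longer window has more room for peaks.

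Of the 17 genes with a maternally methylated germline DMR, 13 had a peak within 1 kb of an annotated start or, without a promoter entry, of a gene end in both libraries (76.5%). Of the other 31 genes, 10 did (32.3%). Peg3 and Usp29 were counted for the same start peak, and so were Peg10 and Sgce, so the genes are not separate sites. A gene without a promoter entry could count at either end. No share over all genes was computed under this mixed rule. By gene ends alone, 12 of the 17 genes (70.6%) and 13 of the other 31 (41.9%) had a peak within 1 kb in both libraries. Over all annotated genes that share was 19.6%. The classes come from general knowledge, but the list of germline DMR genes was set with earlier results of these data known. The 4 genes not counted were Grb10, Impact, Zrsr1 and Inpp5f, each of which had a peak shared by both libraries inside its window. Inpp5f was measured only at its annotated start and Impact only at its gene ends. Internal starts of these genes were not measured. At Grb10 the TAC peak was within 1 kb of a start and the Sham peak was not. A shared peak overlapped, by 1 bp or more, a peak called in the other library. All 18 clusters had a shared peak in a window, and so did 40 of the 48 genes (83.3%), against 60.8% of all annotated genes.

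The position of a peak in its deposited list, from 0% at the top to 100% at the bottom, was used as a guide to its strength, because the score column is the same for every peak. The order is not explained in the sources used here. Over the whole lists the share of peaks that were shared fell from 98.4% in the first 10% of either list to 39.5% (Sham) and 22.7% (TAC) in the last 10%. The median width fell from 958 to 501 bp in Sham and from 892 to 501 bp in TAC. List positions are read within a list only, since the lists differ in length.

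At the promoters of imprinting control RNAs, Kcnq1ot1 had a strong peak in both libraries. The antisense RNA Kcnq1ot1 (chr7:143213111-143296547) starts inside the Kcnq1 gene and is transcribed from the unmethylated paternal copy. Its start peak was chr7:143295063-143296589 in Sham (list position 2.2%) and chr7:143294884-143296708 in TAC (3.1%), and it overlapped the printed start sequence. The window held 1 Sham peak and 4 TAC peaks, 3 of the latter in TAC alone. Airn (chr17:12741311-12859884), the antisense RNA that silences Igf2r, had weaker peaks near its start. They were chr17:12742122-12742622 in Sham (55.7%), 811 bp from the start, and chr17:12741624-12742677 in TAC (18.4%), 313 bp from it. The summed full width of peaks reaching within 1 kb of the start was 501 bp in Sham and 1054 bp in TAC. Igf2r (chr17:12682406-12769706) had a peak over its own start, at 21.8% of the Sham list (chr17:12769414-12770060) and 53.8% of the TAC list (chr17:12769483-12769983). Peg13 (chr15:72805602-72810324), a non-coding RNA inside the trafficking gene Trappc9, had an end peak of 1465 bp in Sham (chr15:72809194-72810658, 13.2%) and 658 bp in TAC (chr15:72809399-72810056, 50.3%).

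Among protein-coding genes expressed from the paternal copy, Mest, Peg3 and Peg10 carried broad start peaks. Mest (chr6:30733506-30748466) encodes a hydrolase-like protein of mesoderm, and it has an upstream and a downstream start. The downstream start, whose sequence is printed above, lay under a Sham peak of 1971 bp (chr6:30736802-30738772, 1.4%). In TAC the same stretch carried 2 separate peaks, chr6:30736864-30737364 (46.2%) and chr6:30737889-30738658 (4.0%), together 1271 bp. The upstream start carried 1711 bp in Sham and 1496 bp in TAC. Peg3 (chr7:6703892-6730462), a zinc finger transcription factor gene, and Usp29 (chr7:6730559-6967220), a deubiquitinase gene, share a bidirectional start region. Its peak measured 1647 bp in Sham (chr7:6729451-6731097, 7.1%) and 1046 bp in TAC (chr7:6730150-6731195, 6.8%). A neighbouring peak inside Usp29 was chr7:6734147-6735556 in Sham (4.9%) and chr7:6734071-6735561 in TAC (2.4%).

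Peg10, a gene derived from a retrotransposon and needed in placenta, and Sgce, which encodes epsilon-sarcoglycan of the muscle membrane complex, also share a start region. Sham had 1 peak of 2677 bp there (chr6:4746711-4749387, 4.6%). TAC had a peak of 1031 bp over the start (chr6:4746789-4747819, 24.2%) and, inside the stretch of the Sham peak, a narrow one at chr6:4748951-4749451 (72.3%). The other end of Peg10 (chr6:4747306-4760517) showed the opposite order of widths. It carried 1545 bp in Sham (chr6:4761237-4762781, 1.7%) and 2561 bp in TAC (chr6:4760216-4762776, 0.4%). Sgce (chr6:4674350-4747204) had its top-ranked peaks inside the gene body, at 1.0% of the Sham list and 0.3% of the TAC list.

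Plagl1, Nnat, Mcts2 and Snrpn also had peaks within 1 kb of a start in both libraries. Plagl1 (chr10:13090832-13131694) encodes a zinc finger regulator of growth, and its start peak measured 1604 bp in Sham (chr10:13089726-13091329, 4.8%) and 638 bp in TAC (chr10:13090700-13091337, 22.4%). Nnat (chr2:157560078-157562525), which lies in an intron of Blcap, had 816 bp in Sham (chr2:157559977-157560792, 12.4%) and 1044 bp in TAC (chr2:157559929-157560972, 11.6%). Mcts2 (chr2:152687148-152687946), a retrogene inside H13, had 626 bp in Sham (chr2:152686777-152687402, 17.6%) and 501 bp in TAC (chr2:152686831-152687331, 45.6%). Snrpn (chr7:59982495-60450177) encodes a small ribonucleoprotein component. The peak nearest to its start at position 60005199 was 567 bp away in Sham (chr7:60004007-60004632, 17.8%) and 563 bp in TAC (chr7:60004009-60004636, 29.1%), with nearly the same width in both (626 and 628 bp).

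The 4 genes without a peak near a measured start or end in both libraries had shared peaks elsewhere in their windows or just beyond 1 kb of a start. Grb10 (chr11:11930499-12037428), an adaptor that dampens insulin signalling, had its peak 1055 bp from the start at position 12027971 in Sham (chr11:12025580-12026916, 11.7%). In TAC it was 909 bp from that start (chr11:12025234-12027062, 8.5%). Impact (chr18:12954690-12992950), a translational regulator gene, had an upstream peak at 11.1% of the Sham list (chr18:12950376-12951002) and 6.5% of the TAC list (chr18:12949647-12950976). It also had an intragenic peak at 12.8% (chr18:12973471-12974365) and 10.2% (chr18:12973349-12974680). Zrsr1 (chr11:22972005-22976496), a splicing factor retrogene inside Commd1, had 1 peak in each library, chr11:22973195-22973828 (44.2%) in Sham and chr11:22973080-22973894 (32.3%) in TAC. Inpp5f (chr7:128611181-128696436), a phosphoinositide phosphatase gene with an imprinted internal transcript, had its top Sham peak in the right part of the gene body (chr7:128687395-128688747, 8.0%), shared with a TAC peak at 20.4% (chr7:128687149-128687810). Its top TAC peak lay near the left end (chr7:128614879-128615509, 16.8%), where the Sham list had a peak at 40.9% (chr7:128614842-128615472).

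The full widths of peaks reaching within 1 kb were summed at 16 starts or gene ends of the germline DMR genes, 14 of them distinct. Sham was wider at 8 and TAC at 6. The widths differed by 2-fold or more at 5, of which 4 were wider in Sham and 1 in TAC. A width is not a signal, and a region called as separate peaks, as at Mest in TAC, loses the width between them. At the start of Peg10 and Sgce, 1 of the sites differing by 2-fold or more, the whole Sham peak counted. The narrow TAC peak inside its stretch lay beyond 1 kb and did not count, so these numbers depend on the rule. Across the windows, 168 peaks paired one to one between the libraries, and 56 were wider in Sham (33.3%), 61 in TAC (36.3%) and 51 equal (30.4%). Over the whole lists the shares were 32.0%, 34.8% and 33.2%, so widths in the imprinted windows were split between the libraries much as elsewhere.

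**Figure D2:**
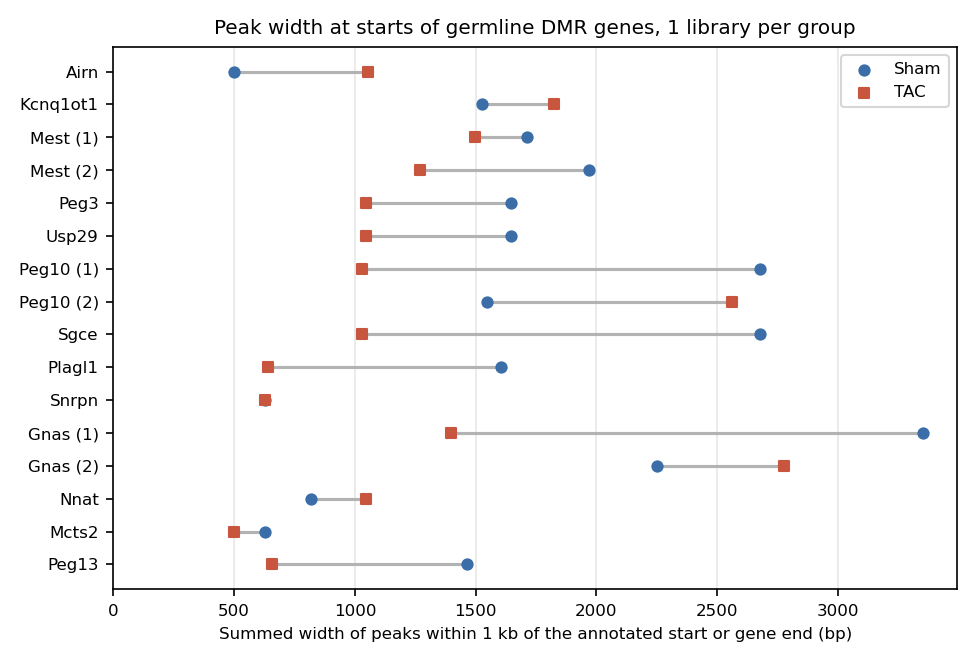
Summed full width (x axis, bp) of the peaks reaching within 1 kb of 16 annotated starts or gene ends of genes with a maternally methylated germline DMR. There is 1 point for the Sham library and 1 for the TAC library, joined by a line. The first Gnas site is wider in Sham (3350 against 1399 bp), the right end of Peg10 wider in TAC (2561 against 1545 bp), and neither library is wider throughout.

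Gnas (chr2:174284320-174346744) held the widest Sham peak of the set (4476 bp) and gave a comparison between starts of 1 gene. The locus encodes the stimulatory G protein alpha subunit, which couples beta-adrenergic receptors to adenylyl cyclase, and has further starts upstream with their own imprints. Each library had 10 peaks in the window, and 8 of the Sham peaks and all 10 TAC peaks were shared. The leftmost start was covered by 3350 bp in Sham (chr2:174283874-174287223, 1.8%) and 1399 bp in TAC (chr2:174283818-174285216, 7.7%). Further in, Sham had 1 peak of 4476 bp (chr2:174296795-174301270, 0.4%) where TAC had 3 peaks of 501, 794 and 873 bp (58.1%, 28.7% and 6.4%). The windows around positions 174327749 and 174327768, the alternative start printed as Gnas-1A, lay under chr2:174327107-174329358 in Sham (0.5%) and chr2:174326961-174329735 in TAC (1.2%). The main start at position 174330006, with 40 CpG in its window, lay outside: the nearest peak edge was 648 bp away in Sham and 271 bp in TAC. So the same gene had a CpG-rich start under top-ranked peaks and another a short way downstream without a peak, in both libraries. Peaks covered 14586 bp of the Gnas window in Sham and 9226 bp in TAC.

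**Figure D3:**
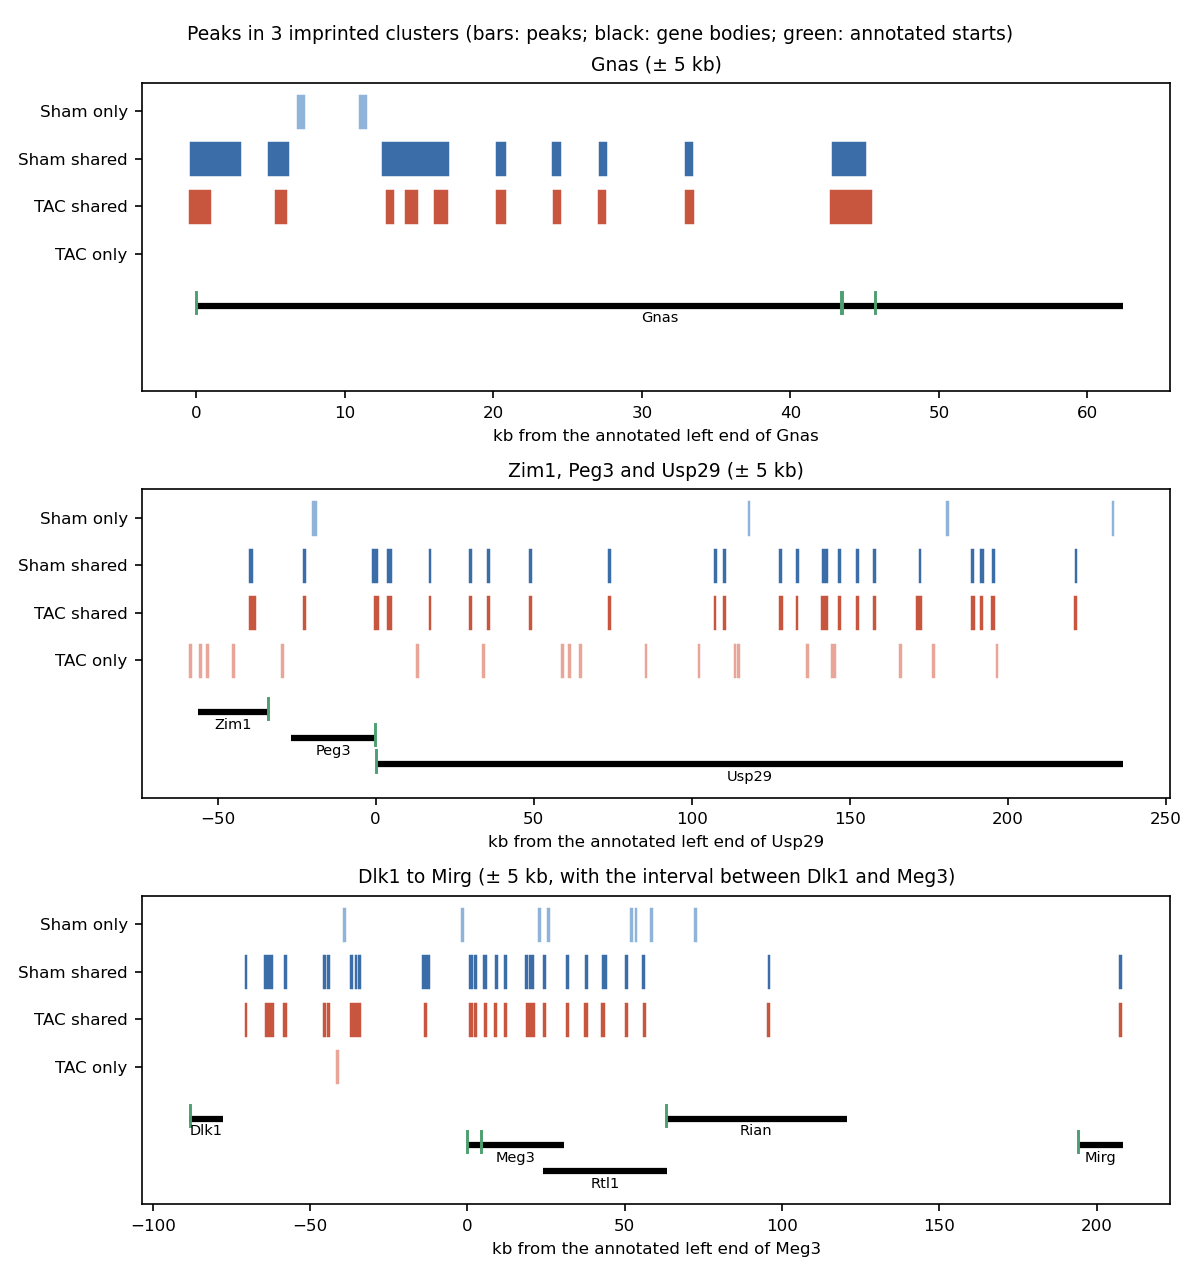
Peaks of each library in 3 imprinted clusters, drawn to scale as bars in lanes for Sham alone, Sham shared, TAC shared and TAC alone, over gene bodies (black) and annotated starts (green); the x axis is the distance in kb from the left end of Gnas, Usp29 or Meg3. The broad 4476 bp Sham peak in Gnas stands over 3 TAC peaks, TAC-alone peaks are spread along Usp29, and the Meg3 and Rtl1 windows hold Sham-alone peaks without TAC-alone peaks.

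Genes of the sperm-methylated regions were described next. H19 (chr7:142575530-142578146), a maternally expressed non-coding RNA that restrains growth, had 3 peaks in each library. Those over the gene were chr7:142576642-142578009 in Sham (10.5%) and chr7:142576655-142577284 (35.5%) with chr7:142578029-142578529 (27.8%) in TAC. A shared peak lay beyond its right end, 1448 bp away in Sham (chr7:142579594-142580221, 22.4%) and 1124 bp in TAC (chr7:142579270-142580252, 10.4%), on the side where the imprinting control region is known to lie. From there no peak was called for 17.6 kb in Sham and 25.2 kb in TAC. Igf2 (chr7:142650768-142666816), the fetal growth factor gene, had 7 Sham and 5 TAC peaks. Its top peak lay beside the left end, at 7.3% in Sham (chr7:142649044-142649980) and 5.9% in TAC (chr7:142649291-142649917).

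Meg3 (chr12:109540996-109571729), a maternally expressed non-coding RNA, had 12 Sham and 8 TAC peaks, and all 8 TAC peaks were shared. Its start-side peak was chr12:109541419-109542373 in Sham (23.8%) and chr12:109541417-109542580 in TAC (11.9%). The top peak of the TAC window measured 2497 bp (chr12:109559539-109562035, 2.4%) and spanned 2 Sham peaks of 668 and 1473 bp. Dlk1 (chr12:109452485-109463336), which encodes a Notch-like growth regulator, had no peak in its window in either library. Rasgrf1 (chr9:89909508-90026979), a Ras exchange factor gene, had 12 Sham and 15 TAC peaks. Its top peak lay inside the gene, with 2219 bp in Sham (chr9:89959405-89961623, 3.2%) and 3034 bp in TAC (chr9:89959403-89962436, 0.4%), while its start had no peak within the promoter window.

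Cdkn1c, Ddc and Ube3a are maternally expressed or tissue-dependent neighbours of the control regions. Cdkn1c (chr7:143458339-143461059), an inhibitor of cyclin-dependent kinases, lay under a peak of 2147 bp in Sham (chr7:143459778-143461924, 4.4%) and 1210 bp in TAC (chr7:143459728-143460937, 12.2%). Ddc (chr11:11814101-11898144), which encodes the enzyme that makes dopamine and serotonin and is imprinted in the developing heart, had 10 Sham and 11 TAC peaks. Its top peak was chr11:11827188-11828385 in Sham (4.2%) and chr11:11827177-11828538 in TAC (3.5%), and a peak on the start side was 662 bp away in Sham (21.5%) and 566 bp in TAC (24.5%). Ube3a (chr7:59228750-59310837), a ubiquitin ligase gene, had no peak at its ends. The shared peak of its window lay in the flank, at chr7:59314695-59315476 in Sham (24.6%) and chr7:59314634-59315777 in TAC (3.2%).

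Some members had no peak at all. Ndn, Mkrn3 and Peg12, small paternally expressed genes of the Prader-Willi region, had no peak within 5 kb in either library. Their promoter windows held 11, 15 and 12 CpG. Snrpn and Magel2 of the same cluster had peaks in both libraries, so this holds for these genes and not for the region. Dlk1 and Dio3, which encodes the deiodinase that inactivates thyroid hormone, were the other genes without a peak in their windows. These 5 of 48 (10.4%) compare with 18.2% of all annotated genes, so windows without peaks were not more frequent here than elsewhere. Klf14 had 1 peak in TAC and none in Sham. The remaining 42 genes (87.5%) had peaks in both libraries, against 66.2% of all genes.

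Peak numbers per gene differed in both directions. TAC was higher at 17 of the 48 genes (35.4%, against 34.3% of all genes) and Sham was higher at 17 (35.4%, against 24.6%). The numbers were equal at 9 genes with peaks. A difference of 4 or more was found at 6 genes: TAC was higher at 3 (6.25%, against 3.35% of all genes) and Sham at 3 (6.25%, against 1.85%). For none of the genes with peaks did the interval of the TAC share of peaks exclude 50%. At genes with few peaks such an interval cannot exclude 50%, whatever the split. It also counts shared peaks in both lists, so it does not show that the numbers were even.

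**Figure D4:**
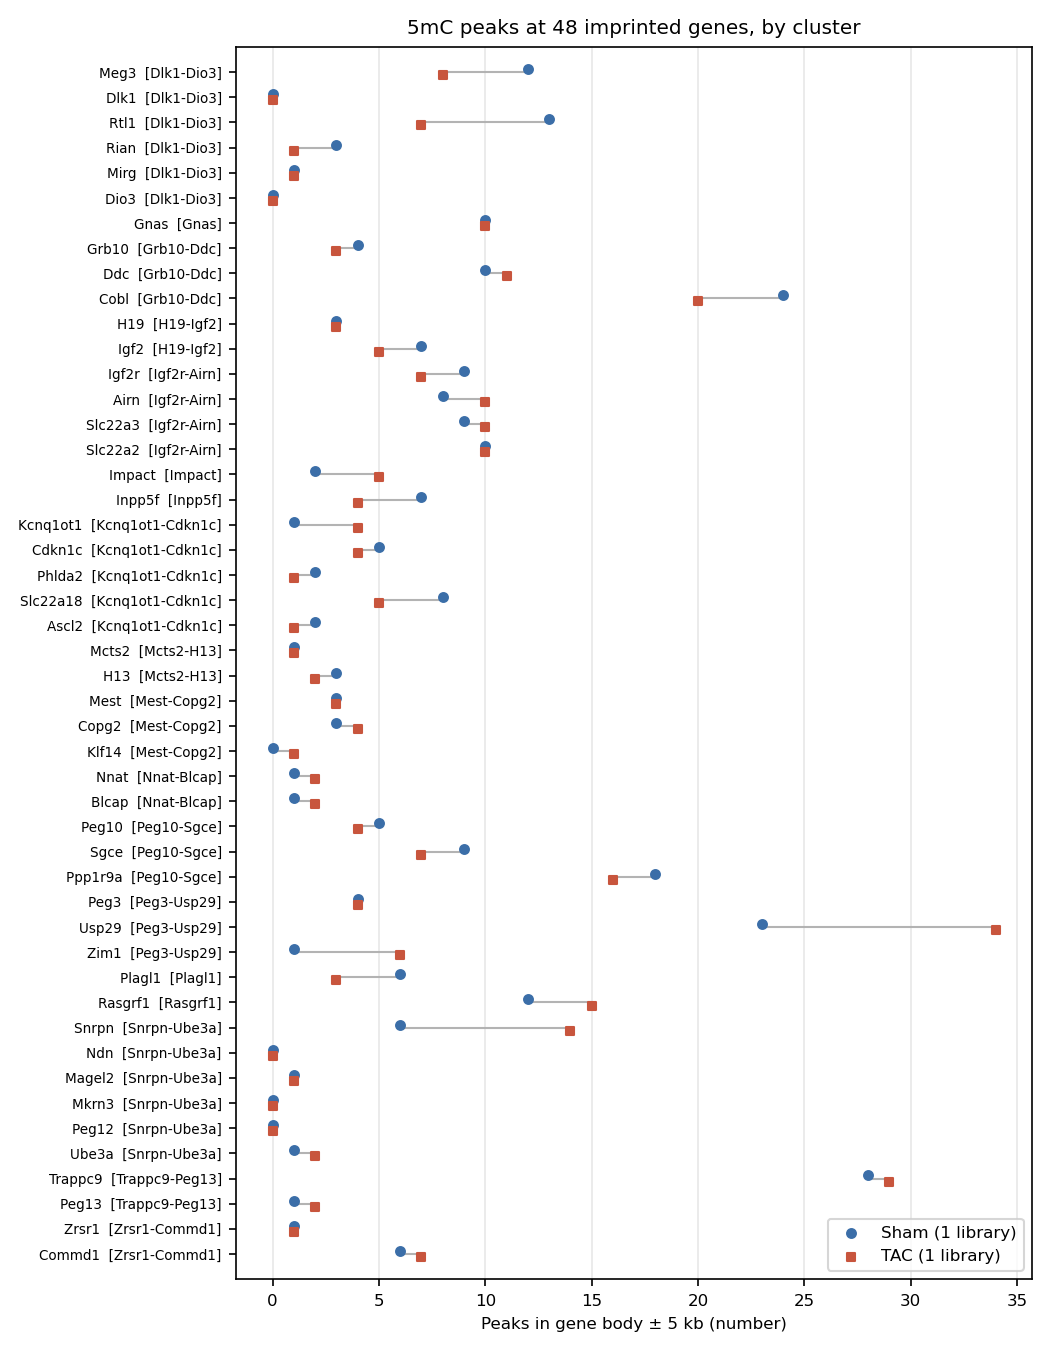
Number of peaks in the gene body and 5 kb on either side (x axis) for each of the 48 imprinted genes (y axis, with the cluster in brackets), with 1 point for Sham and 1 for TAC. Usp29 (23 and 34), Snrpn (6 and 14) and Zim1 (1 and 6) extend furthest toward TAC, and Rtl1 (13 and 7), Meg3 (12 and 8) and Cobl (24 and 20) toward Sham.

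Usp29, Snrpn and Zim1 were the 3 genes with more TAC peaks. Usp29 had 23 peaks in Sham and 34 in TAC, so TAC held 59.6% of them (95% exact binomial interval 45.8 to 72.4). Of these, 20 Sham peaks were shared and 14 TAC peaks were in TAC alone, spread along the gene at list positions of 24.2% to 91.5%. Snrpn had 6 and 14 peaks, a TAC share of 70% (45.7 to 88.1), with 9 peaks in TAC alone at 30.5% to 91.6%. Zim1 (chr7:6674444-6696540) had 1 and 6 peaks (85.7%, 42.1 to 99.6). Its shared peak was wide and near the top in both lists, chr7:6690563-6691454 in Sham (8.2%) and chr7:6690429-6692285 in TAC (1.5%), and the other 5 TAC peaks stood at 37.2% to 91.5%. No TAC-alone peak of these 3 genes was in the first 10% of its list. Such peaks were rare in general, since 98.4% of the first 10% of the TAC list was shared.

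Meg3, Rtl1 and Cobl had more Sham peaks. Rtl1 (chr12:109564900-109604418), a retrotransposon-derived gene, had 13 peaks in Sham and 7 in TAC (TAC share 35%, 15.4 to 59.2), and all 7 TAC peaks were shared. Meg3 had a TAC share of 40% (19.1 to 64.0), and its window overlaps that of Rtl1, so the pair share peaks. Cobl (chr11:12236676-12465022), an actin nucleator gene, had 24 and 20 peaks (45.5%, 30.4 to 61.2). It held some of the highest-ranked peaks of the set, chr11:12316461-12319227 in Sham (2767 bp, 0.4%) and chr11:12316322-12318940 in TAC (0.6%).

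Of the remaining members, the transporter genes next to Igf2r had even numbers. Slc22a2 had 10 peaks in each library, and Slc22a3 had 9 and 10. The top Sham peak of Slc22a2 (chr17:12605450-12606873, 1.1%) was shared with a TAC peak at 1.9%, and its top TAC peak (chr17:12598013-12598764, 1.8%) with a Sham peak at 4.1%. Trappc9, the longest member (chr15:72589620-73061238), had 28 and 29 peaks, with 13 in each library alone. The neighbours of Cdkn1c were low in number: Phlda2 and Ascl2 had 2 Sham peaks and 1 TAC peak each, and the transporter gene Slc22a18 had 8 and 5. Copg2, the coat protein gene next to Mest, had 3 and 4 peaks, none of them shared. Ppp1r9a had 18 and 16, Commd1 6 and 7, H13 3 and 2, Blcap 1 and 2, and the non-coding RNAs Rian and Mirg 3 and 1 and 1 and 1.

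By cluster, TAC had more peaks in 9, Sham in 8 and the numbers were equal in 1. The Peg3-Usp29 cluster had 26 Sham and 41 TAC peaks, a TAC-to-Sham ratio of 1.58 (exact interval 0.942 to 2.69), with 4 peaks in Sham alone and 19 in TAC alone. Snrpn-Ube3a had 8 and 17, a ratio of 2.13 (0.869 to 5.69). Dlk1-Dio3 had 22 and 14, a ratio of 0.636 (0.301 to 1.30), with 7 peaks in Sham alone and 0 in TAC alone. In none of the 18 clusters did the interval exclude 1. These intervals count a shared peak in both lists as if the counts were separate, so they cannot show that the numbers were even. Peaks in 1 list alone were not tested. Igf2r-Airn (34 and 35), Trappc9-Peg13 (28 and 29) and Grb10-Ddc (38 and 34) were near even. Peg10-Sgce had 31 and 25, Kcnq1ot1-Cdkn1c 16 and 14, Rasgrf1 12 and 15, and H19-Igf2 10 and 8. The smaller clusters were Inpp5f (7 and 4), Plagl1 (6 and 3), Mest-Copg2 (6 and 8), Zrsr1-Commd1 (6 and 7), Mcts2-H13 (3 and 2), Impact (2 and 5) and Nnat-Blcap (1 and 2).

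Over all imprinted windows the number of peaks in TAC was 1.03 times that in Sham (0.864 to 1.22). The ratio was 1.10 over all gene windows (1.09 to 1.11) and 1.19 over the whole lists. For peaks in 1 list alone it was 1.02 in the imprinted windows (0.757 to 1.38) and 1.27 in all gene windows (1.25 to 1.29). Covered bases were 201028 in Sham and 193872 in TAC, a ratio of 0.964. The TAC library had more tags (14658177 against 12585289) and a larger share of them in peaks (34.7% against 29.9%), and the part of depth in these ratios was not tested. The interval of the imprinted ratio includes the value for all gene windows, so at these numbers a departure from the other genes was not detectable.

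Sharing and rank set the imprinted windows apart only in part. Of the 266 Sham peaks, 175 were shared (65.8%, exact interval 59.8 to 71.5), against 65.0% in all gene windows. Of the 273 TAC peaks, 180 were shared (65.9%, 60.0 to 71.5), against 59.6%. Peaks per Mb were 72.0 in Sham and 73.9 in TAC, against 62.5 and 68.5 in all gene windows. The first 10% of the Sham list supplied 51 of the Sham peaks (19.2%, 14.6 to 24.4), against 11.0% in all gene windows. In TAC it supplied 42 (15.4%, 11.3 to 20.2), against 11.1%. Neighbouring peaks are not independent, so these intervals are too narrow. The highest-ranked peak of each library was within the first 10% of its list in 12 of the 18 clusters. That count has no background here and depends on cluster size. Clusters held from 1 to 41 peaks in a library, and more peaks make a top-ranked peak likelier.

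Shared peaks of the imprinted windows stood higher in the lists and were wider than peaks in 1 list alone. The median list position was 26.2% for shared and 74.4% for other Sham peaks, and 26.6% and 68.8% for TAC peaks. In all gene windows these medians were 34.4% and 69.0% in Sham and 31.3% and 69.5% in TAC. The median width was 628 bp for shared peaks and 501 bp for the others in both libraries.

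**Figure D5:**
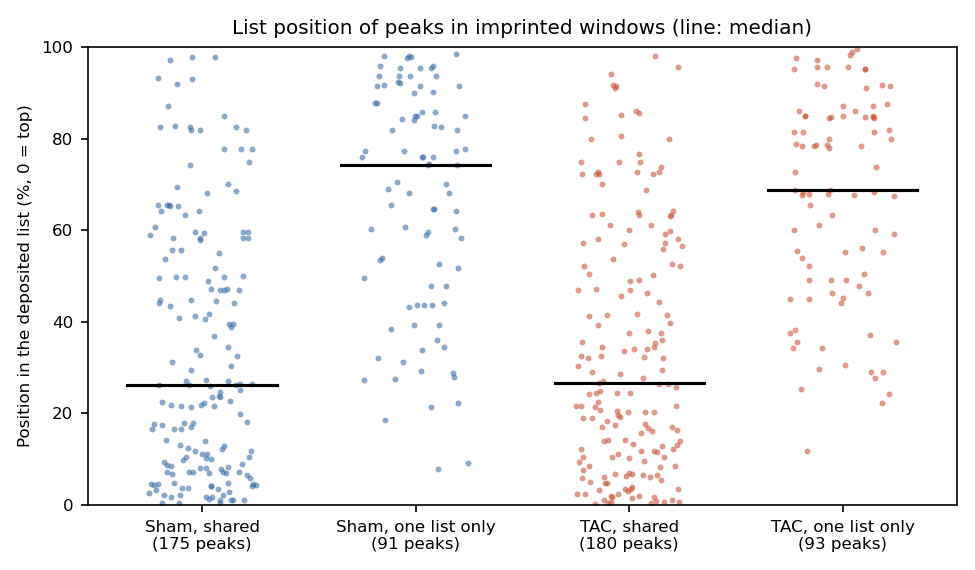
Position in the deposited list (y axis, percent, 0 at the top) of each peak in the imprinted windows, for shared peaks and for peaks in 1 list alone of each library; points are peaks and lines are medians. Shared peaks crowd toward the top (medians 26.2% and 26.6%), and peaks in 1 list alone lie lower (74.4% and 68.8%).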

How the data were processed

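MeDIP-seq peak lists of a Sham and a TAC library were analysed. The submitters' processing notes name BWA 0.7.4-r385, HOMER 4.5, Picard and build mm10. HOMER's histone style was used to call peaks, each library against a shared input, at 4-fold over input, with a peak size of 500 bp and a minimum distance of 1000 bp, per the file headers. The headers give 12585289 (Sham) and 14658177 (TAC) total tags and tag thresholds of 11 and 12. The deposited lists hold start and end of each peak, and the score that the authors deposited is 1 for every peak, so neither a signal nor a depth per peak is known.

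Peaks were assigned to RefSeq gene bodies of GRCm38 with 5 kb flanks, and called shared at 1 bp overlap, in Python 3.11.15 with pandas 2.3.3, numpy 2.4.6 and scipy 1.17.1. Intervals are exact binomial (95%) and cover counting error only. Promoter windows came from RefSeq (GRCm38.p6), for 39 of the 48 genes; the others were measured at gene ends. All 48 genes are accounted for. Described in full were genes at germline DMRs or sperm-methylated regions, Cdkn1c, Ddc, Ube3a, Ndn, Magel2, Mkrn3, Peg12, Igf2r and genes whose peak numbers differed by 4 or more. Members and lists were chosen with earlier results of these data known. The overlap functions were tested on simulated peaks. Alternatives varied the flank, the end distance, the overlap and the part of each list used.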

Additional observations from a re-analysis of the deposited data

How the results depend on the processing

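No paired analysis was possible because each group has 1 library. The number of imprinted genes with a peak within 1 kb of an end in both libraries was 25 as reported and 24 with the TAC list reduced by its order to the length of the Sham list. It was 17 with a distance of 500 bp, 27 with 2 kb, and 16 with only the first 50% of each list, where 11.6% of all genes had such a peak. The share over all genes was not computed at 500 bp, at 2 kb or with the reduced TAC list. Those counts therefore do not show whether the difference from all genes held. The share of Sham peaks shared with TAC moved to 71.7% with the first 50% of each list. The share of TAC peaks shared with Sham moved to 71.9% there and to 72.8% with the reduced TAC list. The ratio of TAC to Sham peaks fell to 0.872 with the reduced TAC list. Left out one at a time, as settings chosen after seeing the data, the Peg3-Usp29 windows gave a ratio of 0.967 and the Snrpn-Ube3a windows 0.992. With the reduced TAC list Peg3-Usp29 had 26 Sham and 35 TAC peaks and Snrpn-Ube3a 8 and 11. Of 396 recomputed cluster values 340 stayed within 1.5-fold, and the order of Sham and TAC turned in 3 clusters, each with the reduced TAC list: Igf2r-Airn (34 and 29), Trappc9-Peg13 (28 and 23) and Zrsr1-Commd1 (6 and 5).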

Other observations

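Peaks between imprinted genes, outside the windows above, are given as values. Between H19 and Igf2 (62.6 kb) each library had 8 peaks, 6 of them shared. The highest-ranked were chr7:142614566-142616445 and chr7:142617929-142620486 in Sham (both at 0.6% of the list) and chr7:142614569-142616971 (0.2%) and chr7:142617770-142620575 (0.3%) in TAC.

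Between Dlk1 and Meg3 (67.7 kb), where neither Dlk1 nor its flanks had a peak, there were 10 Sham and 8 TAC peaks, and 9 and 7 of them were shared. The peak nearest before Meg3 measured 2111 bp in Sham (chr12:109526519-109528629, 3.8%), 12367 bp before the Meg3 start. In TAC it measured 501 bp (chr12:109527289-109527789, 32.4%), 13207 bp before it. A higher-ranked peak of the same interval was nearly equal in both libraries, chr12:109476456-109478904 in Sham and chr12:109476530-109479051 in TAC. The opposite order was seen at a TAC peak of 3252 bp (chr12:109503621-109506872, 6.6%). Sham had separate peaks of 501 bp in that stretch, at 94.4%, 85.8% and 76.6%.

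In the 50 kb before Rasgrf1 there were 5 Sham and 4 TAC peaks outside the window, 2 of each shared. The top peak measured 2192 bp in Sham (chr9:89879592-89881783, 2.7%), 27725 bp before the gene, and 2211 bp in TAC (chr9:89879520-89881730, 2.3%). Between Snrpn and Ndn (1888 kb) there were 40 Sham and 66 TAC peaks, with 27 of each shared. Between Ube3a and Snrpn (662 kb) there were 4 and 7, and all 4 Sham peaks were shared. Between Mirg and Dio3 (520 kb) there were 46 and 52, with 34 of each shared.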
